A study of Homo sapiens with 18 samples.

Results

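The Eph receptors are the largest family of receptor tyrosine kinases, and their ligands, the ephrins, sit in the membrane of neighboring cells. Members were taken by name, with earlier results of these data known: 7 receptors, EPHA1, EPHA2, EPHA4, EPHB2, EPHB3, EPHB4 and EPHB6, and 3 ephrins, EFNA1, EFNB1 and EFNB2, which make 10 of the 19401 genes listed in at least 1 of the deposited tables. The data were RNA-seq of MCF10A cells, an immortalized, non-tumorigenic human mammary epithelial line, with 18 libraries in 5 groups. CBFB KO (3 libraries) was compared with the wild type (WT) of its own experiment (3 libraries), and the libraries labelled RUNX1 KO1 (4) and RUNX1 KO2 (4) were each compared with the same RUNX1 experiment WT (4). CBFB binds RUNX proteins, which are transcription factors, without touching DNA itself, and the comparisons ask which transcripts change when CBFB or RUNX1 is lost. The knockouts were made by CRISPR-Cas9 and grown from single cells. Each knockout group was taken as 1 clone, since its libraries carry 1 knockout name. The sample titles do not state this for CBFB KO. Differences between clones are then part of every comparison. All groups were untreated and grew in the same medium with horse serum, EGF, insulin, hydrocortisone and cholera toxin.

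An ephrin on one cell binds an Eph receptor on the next, and signals then pass both ways: forward through the receptor's kinase and reverse through the ephrin. A-type ephrins are held in the membrane by a lipid anchor, whereas B-type ephrins span it and have a cytoplasmic tail. In epithelia the pathway is known for sorting cells across boundaries and for its part in contact between neighboring cells. EPHA2 is the receptor best studied in mammary epithelium, EFNA1 is one of its ligands, and EPHB4 and EFNB2 are a receptor and ligand pair known from blood vessels. EPHB6 binds ephrins but lacks kinase activity.

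The tables gave for each gene a mean of normalized counts, a log2 fold change of KO over WT, its standard error (SE) and p-values, with no value per library, so levels below carry no SD. WT and KO levels were calculated from the mean and the fold change, and they were divided by transcript length where genes are compared with each other. The deposited fold changes of the weakest genes look shrunken: EPHA8 in the CBFB table, with a mean of 0.154, has -0.014 with an SE of only 0.08. Folds of such genes may be understated. Genes with more reads may be touched too: in the CBFB table EPHA10 and KALRN, with means of 12.9 and 11.9, both had an SE of 0.293. What this does to the differences between comparisons given below was not tested. A gene was called changed when its adjusted p (Wald test, Benjamini-Hochberg over all genes tested) was under 0.05, and a fold of at least 2 was counted as a second criterion. The labels do not say that the libraries of a group came from separate cultures, so the p-values measure the spread between these libraries.

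CBFB mRNA fell by 4.88 on the log2 scale in CBFB KO (SE 0.14, adjusted p = 1.39e-252). RUNX1 mRNA was higher in the libraries labelled RUNX1 KO1 (0.54, SE 0.09, adjusted p = 1.45e-08) and RUNX1 KO2 (0.46, SE 0.13, adjusted p = 0.00469), so the mRNA level does not check these labels. The mean normalized counts summed to between 16467400 and 20214423 per library. Among genes whose mean was 100 or more, the median SE was 0.12 in the CBFB table, 0.10 in that of KO1 and 0.21 in that of KO2, so RUNX1 KO2 was the least precise comparison. Of 9 mammary epithelial markers, every one listed had a WT level over 100 (9, 9 and 8 listed in the 3 tables), and the highest blood or endothelial marker had a WT level of 0.885. Of the epithelial markers, 4 rose and 1 fell in CBFB KO, 7 rose and 1 fell in KO1, and 1 rose in KO2. KRT14, a basal keratin not listed in the KO2 table, rose by 2.97 in CBFB KO and 2.95 in KO1 on the log2 scale. KRT17 rose by 0.57, 0.69 and 1.27 in the 3 comparisons. TP63, a transcription factor of basal cells, rose by 0.76 in CBFB KO and 1.08 in KO1 and had 0.55 in KO2 (adjusted p = 0.227). Of 3 fibroblast markers, COL3A1 was listed in no table and PDGFRB had WT levels of 3.30 to 3.75, while COL1A1, which encodes a collagen chain, was higher in every clone (log2 1.40, 1.75 and 1.36, with WT levels from 132.4 to 155.9). The part of these marker shifts in the results below was not tested.

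The promoters of EPHB2 and EFNA1 are shown because these members rose at least 2-fold in all 3 comparisons. That of EPHB6 is shown because it was the only member whose response differed between CBFB KO and both RUNX1 clones. That of EFNB1 is shown because it also rose in all 3. EPHA1 rose in all 3 as well, and its promoter, which is not shown, held 0 matches to the letters searched. Each runs from 250 bases before to 50 bases after an annotated start, as given by RefSeq for GRCh38.p14, 5′ to 3′ on the gene's own strand. Capitals mark TGTGGT or TGCGGT, letters known as RUNX binding sequences, or their reverse complements ACCACA and ACCGCA, which were searched on both strands. The motifs differ at 1 base, so no stretch matches both, although neighboring matches could share an end base.
EPHB2 promoter, chr1:22710588-22710887, plus strand: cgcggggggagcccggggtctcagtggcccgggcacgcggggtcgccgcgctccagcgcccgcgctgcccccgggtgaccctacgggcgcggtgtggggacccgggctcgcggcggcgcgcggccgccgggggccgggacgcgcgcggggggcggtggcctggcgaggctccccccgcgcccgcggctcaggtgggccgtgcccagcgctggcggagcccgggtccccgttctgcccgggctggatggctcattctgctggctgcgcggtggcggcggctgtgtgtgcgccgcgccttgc
EFNA1 promoter, chr1:155127626-155127925, plus strand: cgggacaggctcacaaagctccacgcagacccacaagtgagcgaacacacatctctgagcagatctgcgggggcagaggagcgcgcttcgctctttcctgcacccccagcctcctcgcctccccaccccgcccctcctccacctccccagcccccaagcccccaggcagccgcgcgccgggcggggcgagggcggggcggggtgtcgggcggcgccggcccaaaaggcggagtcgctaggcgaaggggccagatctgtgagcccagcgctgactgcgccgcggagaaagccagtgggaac
EPHB6 promoter, chr7:142862506-142862805, plus strand: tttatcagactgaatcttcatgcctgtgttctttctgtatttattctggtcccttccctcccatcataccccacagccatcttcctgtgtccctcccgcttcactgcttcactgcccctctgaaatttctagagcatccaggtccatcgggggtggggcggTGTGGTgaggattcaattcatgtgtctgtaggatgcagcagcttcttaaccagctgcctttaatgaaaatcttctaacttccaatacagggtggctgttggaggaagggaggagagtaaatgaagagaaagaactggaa
EFNB1 promoter, chrX:68828771-68829070, plus strand: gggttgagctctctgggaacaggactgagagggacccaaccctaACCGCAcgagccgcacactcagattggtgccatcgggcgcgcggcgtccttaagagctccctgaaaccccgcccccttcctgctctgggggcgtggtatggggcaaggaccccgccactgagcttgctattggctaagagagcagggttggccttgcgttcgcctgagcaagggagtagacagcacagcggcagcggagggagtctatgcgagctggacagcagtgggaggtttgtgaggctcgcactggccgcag
All 10 members had at least 1 promoter in the RefSeq table. TGTGGT was found in the promoter of 1 member, EPHB6, and in 13.1% of all 35116 promoters of this length. TGCGGT was found in that of 1 member, EFNB1, and in 7.29% of all promoters. The EPHB6 match began 89 bases before the start and the EFNB1 match 206 bases before it. The EPHB2 promoter was 83% G and C, against a median of 58.7% over all promoters, and that of EPHB6 was 48%. A match is a run of letters and was not measured as a binding site here.

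The levels per kb of transcript set the members far apart in WT cells. EPHA2 had the highest level in every table, with 1069 normalized counts per kb in the CBFB experiment WT and 928.0 and 873.9 in the KO1 and KO2 tables. EPHB4, EFNB1 and EFNB2 followed, with EFNB2 in the lead of these 3 in the CBFB experiment (446.4 for EFNB2, 415.6 for EFNB1 and 353.8 for EPHB4 per kb). In the RUNX1 experiment EPHB4 led them (367.6, with 328.7 for EFNB1 and 280.5 for EFNB2 per kb in the KO1 table). EPHA1 came next in all 3 tables, at 133.2 to 192.2 per kb. EFNA1 (99.3 to 112.3 per kb) and EPHB2 (67.9 to 113.9 per kb) lay below it and changed places between the experiments. EPHB3 was at 50.6 to 59.3 per kb. EPHB6, at 12.6 to 16.7 per kb, and EPHA4, at 4.01 to 7.38 per kb, were the lowest. Without values per library it could not be tested which neighbors in this order differ. With coding length in place of transcript length EFNB2 stood first and EPHA2 next in every table.

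**Figure D1:**
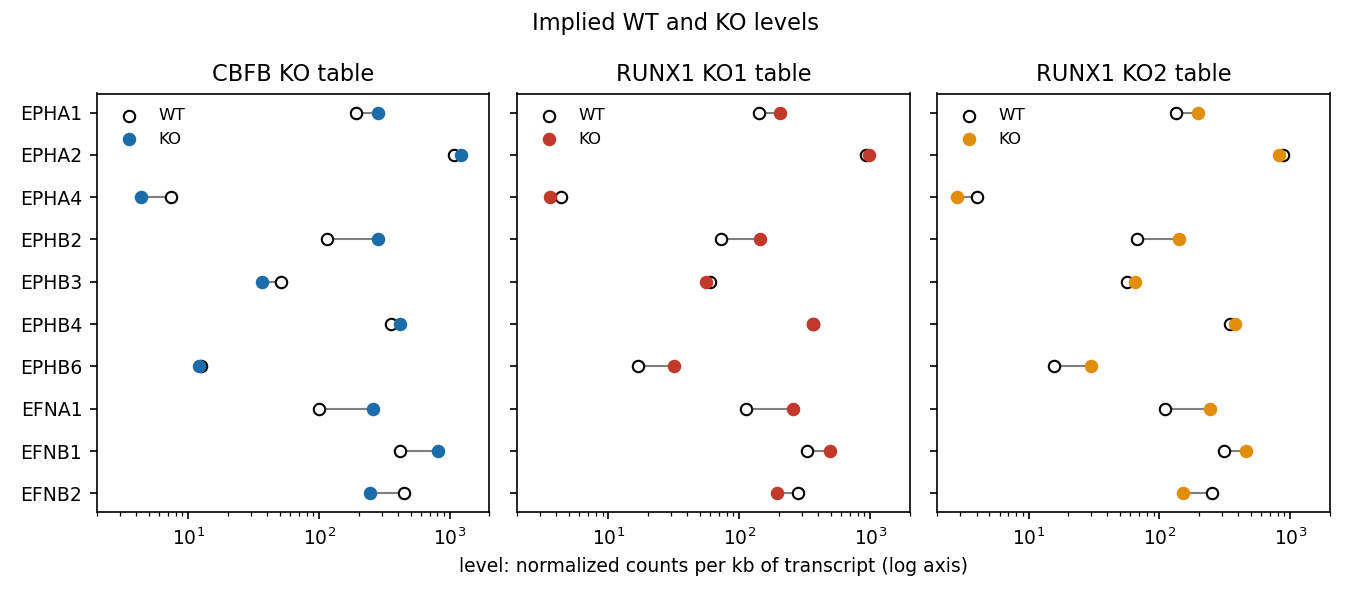
Levels of the 10 members implied by each table, as normalized counts per kb of transcript on a log axis, with open points for WT and filled points for KO. EPHA2 is on the right of every panel at 822.8 to 1212 per kb, EPHA4 is on the left at 7.38 per kb or less, and the longest gaps between WT and KO are those of EPHB2 and EFNA1, and of EPHB6 in the RUNX1 clones.

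More members rose than fell in each comparison. In CBFB KO, 7 of 10 members passed the adjusted p threshold, 5 higher and 2 lower, against 19.7% of all genes tested (11.7% higher and 7.97% lower). In RUNX1 KO1, 6 passed, 5 higher and 1 lower, against 39.5% of all genes (19.7% higher and 19.9% lower). In RUNX1 KO2, 5 passed, all 5 higher, against 14.8% of all genes (8.76% higher and 6.08% lower). Each comparison had 2 members past both criteria, EPHB2 and EFNA1, where 2.98% of all genes passed both in CBFB KO, 4.93% in RUNX1 KO1 and 5.48% in RUNX1 KO2. With a trend on transcript length and GC content subtracted, 2 members were past both in CBFB KO, 1 in RUNX1 KO1 and 0 in RUNX1 KO2. The shares over all genes were not computed with this trend subtracted. The median log2 fold change of the members was 0.20 (CBFB KO), 0.30 (KO1) and 0.38 (KO2), beside -0.0087, -0.0017 and 0.02 over all genes tested. The further Eph and ephrin genes, given below, had medians of -0.06 (6 tested), -0.24 (9 tested) and -0.22 (9 tested). The members were chosen with earlier results of these data known. The 9 further genes tested in KO1 and KO2 include EPHA3, EPHA5 and EPHA6, which had very few reads. These medians therefore do not test whether the members differ from the rest of the family. Of the 10 members, 4 rose in all 3 comparisons (EPHA1, EPHB2, EFNA1 and EFNB1), as did 4.33% of the 14500 genes tested in all 3, and 0 fell in all 3, where the share over all genes was 2.33%. The RUNX1 clones share their WT libraries, so an error in those would appear in both.

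**Figure D2:**
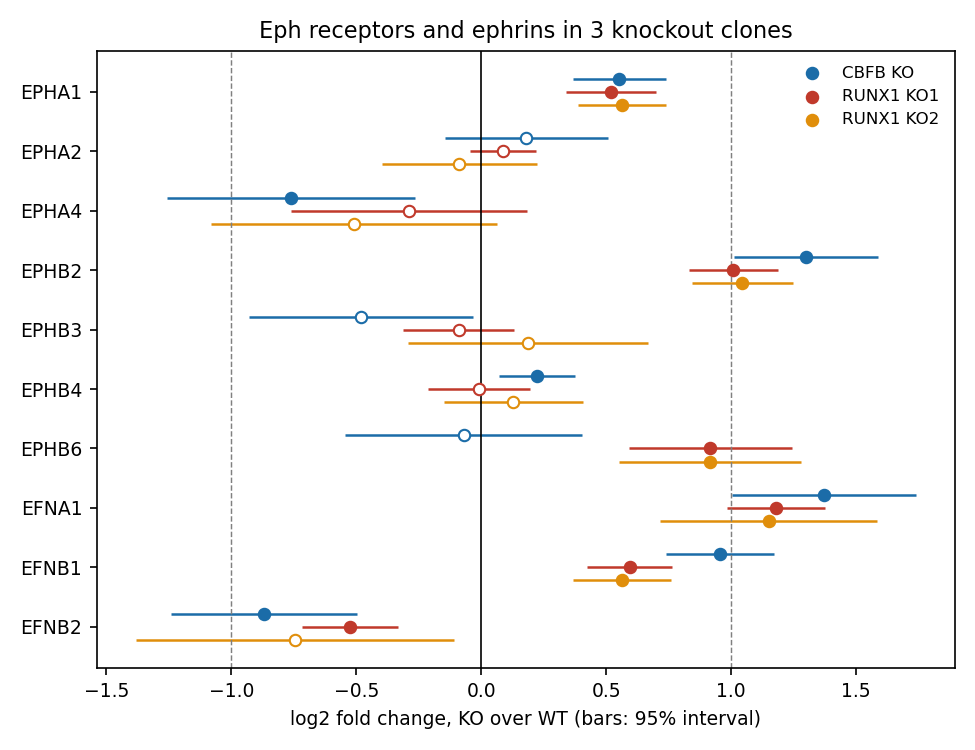
Log2 fold change of KO over WT for the 10 members in each comparison, with 95% intervals as bars. Filled points passed an adjusted p of 0.05, open points did not, and dashed lines mark a fold of 2. The 3 points of EPHB2 and those of EFNA1 lie right of the dashed line, and EPHB6 is near 0 in CBFB KO alone.

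EPHB2 (Entrez ID 2048), a B-class receptor known for placing cells along the intestinal crypt, rose most among the 7 member receptors. Its level was 1232 normalized counts in the CBFB experiment WT and 3030 in CBFB KO. In the RUNX1 experiment it was 779.2 in WT and 1568 in KO1, and 734.1 and 1516 in the KO2 table. The log2 fold change was 1.30 in CBFB KO (SE 0.15, adjusted p = 1.08e-16). It was 1.01 in RUNX1 KO1 (SE 0.09, adjusted p = 8.4e-27) and 1.05 in RUNX1 KO2 (SE 0.10, adjusted p = 1.36e-21). In fold terms this is 2.46 (95% interval 2.01 to 3.0), 2.01 (1.78 to 2.28) and 2.06 (1.79 to 2.38), so the interval of each RUNX1 clone runs below 2. With a trend on transcript length and GC content subtracted, the RUNX1 values were 0.73 and 0.90, still past the adjusted threshold but below a fold of 2. The transcript used, at 10816 bases, is the longest among the members. The nearest expressed genes on either side, ZBTB40 and KDM1A, each have 5 genes between them and EPHB2. They changed by no more than 0.21 in size on the log2 scale in any comparison. KDM1A passed the threshold in KO1 (-0.17, adjusted p = 0.0450). MIR4253, a microRNA gene inside EPHB2, was listed with log2 fold changes of 1.08, 1.17 and 0.71. The value in KO2 did not pass the threshold (SE 0.40, adjusted p = 0.270). Reads of the host transcript cannot be told apart from those of MIR4253 here.

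EPHA1 (Entrez ID 2041), the first Eph receptor to be described, rose by nearly the same amount in each clone. Its level went from 646.5 to 948.2 normalized counts in CBFB KO, from 476.9 to 683.7 in KO1 and from 448.0 to 662.4 in KO2. The log2 fold changes were 0.55 (SE 0.10, adjusted p = 1.98e-07), 0.52 (SE 0.09, adjusted p = 1.61e-07) and 0.56 (SE 0.09, adjusted p = 1.48e-08). No value reached a fold of 2. EPHA1-AS1, an antisense gene that overlaps it, was listed at means of 7.03 to 12.2 with log2 fold changes of 0.55, 0.42 and 0.65, none past the threshold. Whether counting used strand is not given in the sources used here, so reads of the pair may be mixed.

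EPHB6 (Entrez ID 2051), the receptor without kinase activity, rose in the RUNX1 clones and not in CBFB KO. Its level in CBFB KO was 52.8 normalized counts against 55.5 in WT (log2 -0.07, SE 0.24, adjusted p = 0.886). In RUNX1 KO1 it was 139.3 against 73.8 in WT (log2 0.92, SE 0.17, adjusted p = 3.62e-07). In RUNX1 KO2 it was 131.1 against 69.4 in WT (log2 0.92, SE 0.19, adjusted p = 1.71e-05). These are among the lower levels of the family, and the interval in CBFB KO, from -0.54 to 0.40, does not reach the value of either clone.

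EPHA2 (Entrez ID 1969), the most abundant receptor, did not pass the threshold in any comparison. It stood at 4237 normalized counts in WT and 4803 in CBFB KO, at 3679 and 3903 in the KO1 table, and at 3464 and 3261 in the KO2 table. The log2 fold changes were 0.18 (95% interval -0.14 to 0.51), 0.09 (-0.05 to 0.22) and -0.09 (-0.40 to 0.22). An increase of more than 0.51 or a decrease of more than 0.40 lies outside every interval.

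EPHB4 (Entrez ID 2050), the receptor of EFNB2, rose slightly in CBFB KO, from 1790 to 2089 normalized counts (log2 0.22, SE 0.08, adjusted p = 0.0255). Subtracting the trend on length and GC lowered this to 0.09 (adjusted p = 0.472). In KO1 its log2 fold change was -0.01 (SE 0.10, adjusted p = 0.962) and in KO2 0.13 (SE 0.14, adjusted p = 0.689). Both signs turned under another scaling or the trend, so no direction is given for the RUNX1 clones.

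EPHB3 (Entrez ID 2049), a receptor that shares ligands with EPHB2, did not pass the threshold in any comparison. Its level was 214.5 normalized counts in WT and 153.7 in CBFB KO (log2 -0.48, SE 0.23, adjusted p = 0.129). With the length and GC trend subtracted this became -0.63 (adjusted p = 0.0374). The log2 fold changes were -0.09 (SE 0.11) in KO1 and 0.19 (SE 0.25) in KO2, and the KO2 value turned to -0.029 with the trend subtracted.

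EPHA4 (Entrez ID 2043), a receptor that binds both A-type and B-type ephrins, had few reads. It fell in CBFB KO from 46.8 to 27.6 normalized counts (log2 -0.76, SE 0.25, adjusted p = 0.0180). In the RUNX1 clones the log2 fold changes were -0.29 (SE 0.24, adjusted p = 0.364) and -0.51 (SE 0.29, adjusted p = 0.290), at WT levels of 27.5 and 25.4. The difference between CBFB KO and either clone did not pass the threshold, so a smaller decrease in the clones was not shown.

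EFNA1 (Entrez ID 1942), a lipid-anchored ligand of EPHA2, rose most among the ephrins. Its level was 191.3 normalized counts in WT and 495.3 in CBFB KO. It was 216.3 and 490.6 in the KO1 table, and 211.5 and 469.8 in the KO2 table. On the log2 scale it rose by 1.37 in CBFB KO (SE 0.19, adjusted p = 1.29e-11), by 1.18 in KO1 (SE 0.10, adjusted p = 3.92e-30) and by 1.15 in KO2 (SE 0.22, adjusted p = 5.12e-06). The folds were 2.59 (95% interval 2.01 to 3.34), 2.27 (1.98 to 2.60) and 2.22 (1.64 to 3.0). With the length and GC trend subtracted the KO2 value was 0.996, just under a fold of 2. EFNA3, another A-type ephrin gene that lies directly beside EFNA1 with 0 genes between them, had log2 fold changes of -0.07 (SE 0.21), -0.0002 (SE 0.11) and 0.14 (SE 0.18), none past the threshold. SLC50A1, on the other side, fell in KO1 (-0.35, adjusted p = 5.76e-04) and had 0.03 and 0.17 in CBFB KO and KO2, neither past the threshold.

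Of the B-type ephrins, EFNB1 rose in all 3 comparisons, EFNB2 fell in CBFB KO and KO1, and EFNB3 did not pass the threshold in any. EFNB1 (Entrez ID 1947), an X-linked ephrin known for its part in the formation of the face and skull, rose from 1377 to 2675 normalized counts in CBFB KO (log2 0.96, SE 0.11, adjusted p = 3.13e-16). It rose from 1089 to 1644 in KO1 (0.59, SE 0.09, adjusted p = 1.57e-10) and from 1027 to 1520 in KO2 (0.57, SE 0.10, adjusted p = 4.84e-07). EFNB2 (Entrez ID 1948), the ligand of EPHB4, fell from 2230 to 1221 normalized counts in CBFB KO (log2 -0.87, SE 0.19, adjusted p = 7.91e-05) and from 1401 to 973.3 in KO1 (-0.53, SE 0.10, adjusted p = 9.75e-07). In KO2 its levels were 1268 in WT and 756.8 in KO, which is -0.75 on the log2 scale with an SE of 0.33 (unadjusted p = 0.0219, adjusted p = 0.115). The KO2 estimate lay between those of the other clones, but its interval was wide, from -1.38 to -0.11. Per kb of transcript EFNB1 was at 0.931, 1.17 and 1.22 times the level of EFNB2 in WT of the CBFB, KO1 and KO2 tables, and at 3.30, 2.55 and 3.03 times in KO. With coding length the ratios were 0.594, 0.748 and 0.779 in WT, so that EFNB1 lay below EFNB2 in all 3, and 2.11, 1.63 and 1.93 in KO.

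The levels were also taken as shares of all listed receptors or ephrins. Per kb, EPHA2 made up 59.3% of the summed receptor level in the CBFB experiment WT and 54.0% in CBFB KO. It went from 58.2% to 54.9% in KO1 and from 58.2% to 50.1% in KO2. The EPHA2 level itself went from 1069 to 1212 per kb in CBFB KO, from 928.0 to 984.7 in KO1 and from 873.9 to 822.8 in KO2. The summed receptor level rose from 1803 to 2243, from 1593 to 1795 and from 1502 to 1642 per kb. With coding length the WT shares of EPHA2 were 52.2%, 52.0% and 51.9%. EPHB2 went from 6.31% to 12.5%, from 4.52% to 8.08% and from 4.52% to 8.53% of the receptors. Among the ephrins, EFNB2 went from 33.2% to 14.4% in CBFB KO, from 24.2% to 14.6% in KO1 and from 23.4% to 12% in KO2. EFNA1 went from 7.39% to 15.1%, from 9.71% to 19.0% and from 10.1% to 19.4%. EFNB1 went from 30.9% to 47.4%, from 28.4% to 37.1% and from 28.5% to 36.4%. These shares have no error, since the tables give no values per library.

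**Figure D3:**
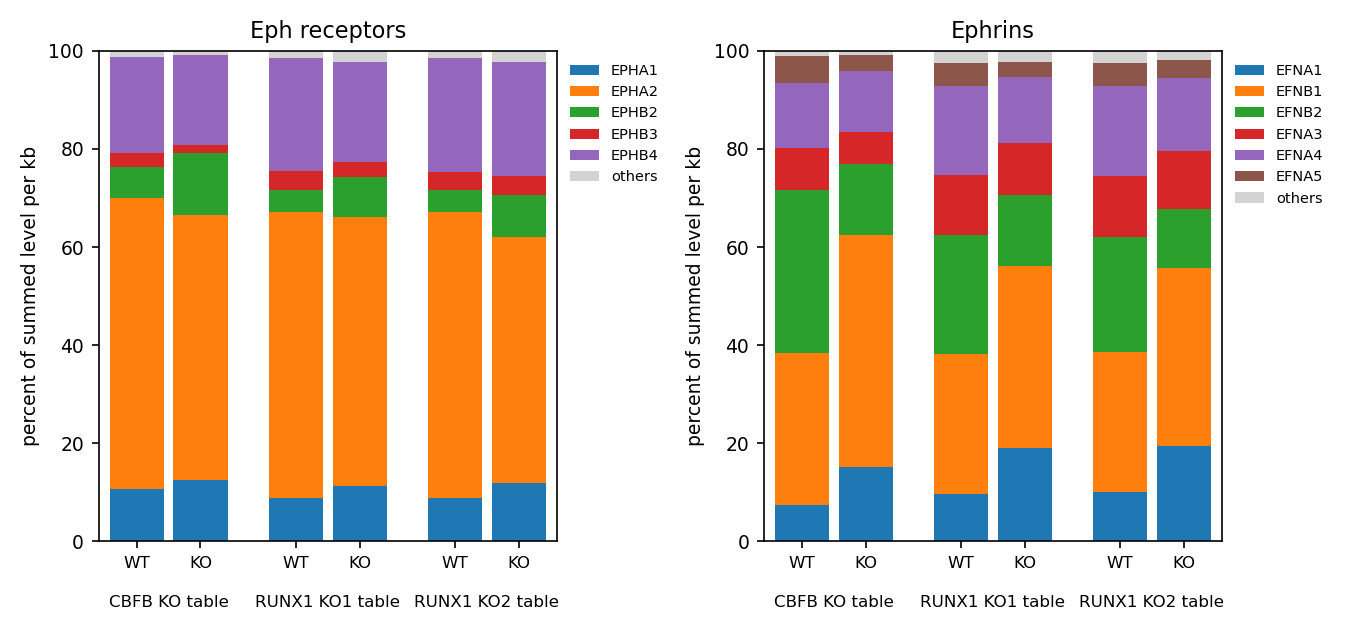
Share of each gene in the summed level per kb of all listed Eph receptors (left) and ephrins (right), as percent, for WT and KO of each table. EPHA2 holds 50.1% to 59.3% of the receptor bars, and the EFNB2 band is narrower in each KO bar than in its WT bar. Genes under 3% in every bar are pooled as others.

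The CBFB table shares no library with the RUNX1 tables, so the responses of the members could be compared by a test of the difference of log2 fold changes. Which gene was lost and which experiment it came from cannot be told apart in it. Of 10 members, 1 differed between CBFB KO and RUNX1 KO1, where 9.84% of all genes did, and 1 differed between CBFB KO and RUNX1 KO2, where 2.9% of all genes did. It was EPHB6 both times, with a difference of -0.99 (SE 0.29, adjusted p = 0.0154) against KO1 and of -0.99 (SE 0.30, adjusted p = 0.0430) against KO2. With the length and GC trend subtracted the difference against KO2 was -0.92 (adjusted p = 0.0747). The EFNB1 differences were 0.36 (95% interval 0.09 to 0.64) and 0.39 (0.10 to 0.68), and neither passed after adjustment (adjusted p = 0.0773 and 0.190). Those of EPHB3 were -0.39 (-0.89 to 0.11) and -0.67 (-1.33 to -0.01), and neither passed (adjusted p = 0.358 and 0.506). For EPHB2 the differences were 0.29 (-0.05 to 0.63) and 0.25 (-0.10 to 0.61). For EFNA1 they were 0.19 (-0.22 to 0.61) and 0.22 (-0.35 to 0.79). For EPHA1 they were 0.03 (-0.23 to 0.29) and -0.01 (-0.27 to 0.25), the narrowest bounds around 0. EFNB2 gave -0.34 (-0.76 to 0.08) and -0.12 (-0.86 to 0.61). These intervals leave room for differences up to their bounds, and a missed threshold does not show that the responses were alike.

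**Figure D4:**
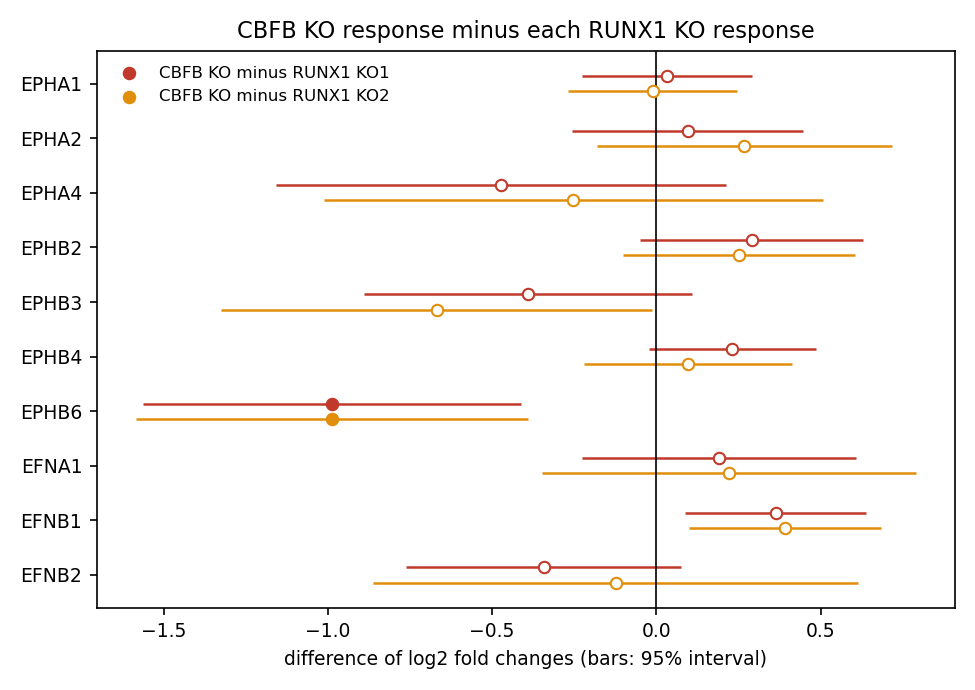
Difference of log2 fold changes, CBFB KO minus RUNX1 KO1 and CBFB KO minus RUNX1 KO2, for the 10 members, with 95% intervals as bars. Filled points passed an adjusted p of 0.05 and open points did not. Only EPHB6, at -0.99 in both, is filled.

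Of 12 further Eph and ephrin genes, EPHA7 was listed in no table and 5 others had means under 3. EPHA8 and EPHB1, where listed, had means under 1 and were not tested. EPHA3, EPHA5 and EPHA6 had means of 1.28 to 2.94. They were not tested in CBFB KO and did not pass the threshold in KO1 or KO2. EPHA10, like EPHB6 a receptor that lacks kinase activity, had means of 12.9, 18.1 and 18.6. It was not past the threshold in CBFB KO (log2 -0.06, SE 0.29, adjusted p = 0.919) and rose in KO1 (1.16, SE 0.27, adjusted p = 1.34e-04) and KO2 (1.34, SE 0.34, adjusted p = 9.46e-04). The difference between CBFB KO and KO1 was -1.22 (SE 0.40, adjusted p = 0.0310), and against KO2 it was -1.40 (SE 0.45, adjusted p = 0.0560). EFNA4 fell in KO1 (log2 -0.24, SE 0.10, adjusted p = 0.0468), with 0.25 in CBFB KO and -0.08 in KO2, neither past the threshold. EFNA5 fell in KO1 (-0.38, SE 0.12, adjusted p = 0.00525), with -0.36 in CBFB KO (adjusted p = 0.0558) and -0.22 in KO2 (adjusted p = 0.575). EFNA2 and EFNB3, with means of 5.94 to 49.7, did not pass in any table. Of the 6, 9 and 9 further genes tested in CBFB KO, KO1 and KO2, 0, 1 and 1 rose and 0, 2 and 0 fell. The shares over all genes were 11.7%, 19.7% and 8.76% higher and 7.97%, 19.9% and 6.08% lower.

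The mRNAs of proteins that pass the receptor's signal on were taken from a list of effectors and adaptors. Of 33 effectors and adaptors tested of 34, 13 passed in CBFB KO (9 higher, 4 lower), 17 in KO1 (12 higher, 5 lower) and 6 in KO2 (4 higher, 2 lower), beside 19.7%, 39.5% and 14.8% of all genes tested. Their median log2 fold changes were 0.17, 0.14 and 0.05, beside the medians over all genes given above. In all 3 comparisons 3 rose, GRB7, GRB10 and FYN, and 2 fell, NGEF and CHN1, where 4.33% of all genes rose and 2.33% fell in all 3. GRB7, an adaptor that binds receptor tyrosine kinases, rose by 1.54 (SE 0.23), 1.78 (SE 0.13) and 2.05 (SE 0.23) on the log2 scale in the 3 comparisons. The related adaptor GRB10 rose by 0.95, 0.83 and 0.70, and FYN, a Src-family kinase, by 0.70, 0.56 and 0.51. CHN1, a Rac GTPase-activating protein that acts below EPHA4 in axons, had log2 fold changes of -1.14 (SE 0.22), -1.54 (SE 0.12) and -1.44 (SE 0.13). NGEF, also called ephexin, an exchange factor bound by EPHA4, had -0.71, -0.47 and -0.74. KALRN, an exchange factor for Rac, had low means of 11.9 to 18.9 and rose in KO1 (1.17) and KO2 (1.16), with 0.26 in CBFB KO (adjusted p = 0.606). These kinases and adaptors also serve other receptors.

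Of 13 genes of ephrin reverse signaling and of cleavage of Ephs and ephrins, CBFB KO had 5 that rose, KO1 had 7 and KO2 had 2, and 0 fell in any. Over all genes tested 11.7%, 19.7% and 8.76% rose and 7.97%, 19.9% and 6.08% fell. The list holds NCK2 under its older name GRB4, and NCK2 is counted among the effectors too. RHBDL2, a membrane protease known to cut ephrin-B3, rose in all 3 comparisons, by 1.10 (SE 0.26), 1.0 (SE 0.19) and 1.0 (SE 0.20) on the log2 scale, at means of 44.3 to 55.4. GRIP1, a PDZ protein that binds the tails of B-type ephrins, rose in CBFB KO (1.58, SE 0.24, adjusted p = 1.88e-09) and KO1 (1.10, SE 0.19, adjusted p = 1.67e-07), and had 0.59 in KO2 (SE 0.40, adjusted p = 0.403). The list's median log2 fold changes were 0.22, 0.36 and 0.16, beside -0.0087, -0.0017 and 0.02 over all genes.

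**Figure D5:**
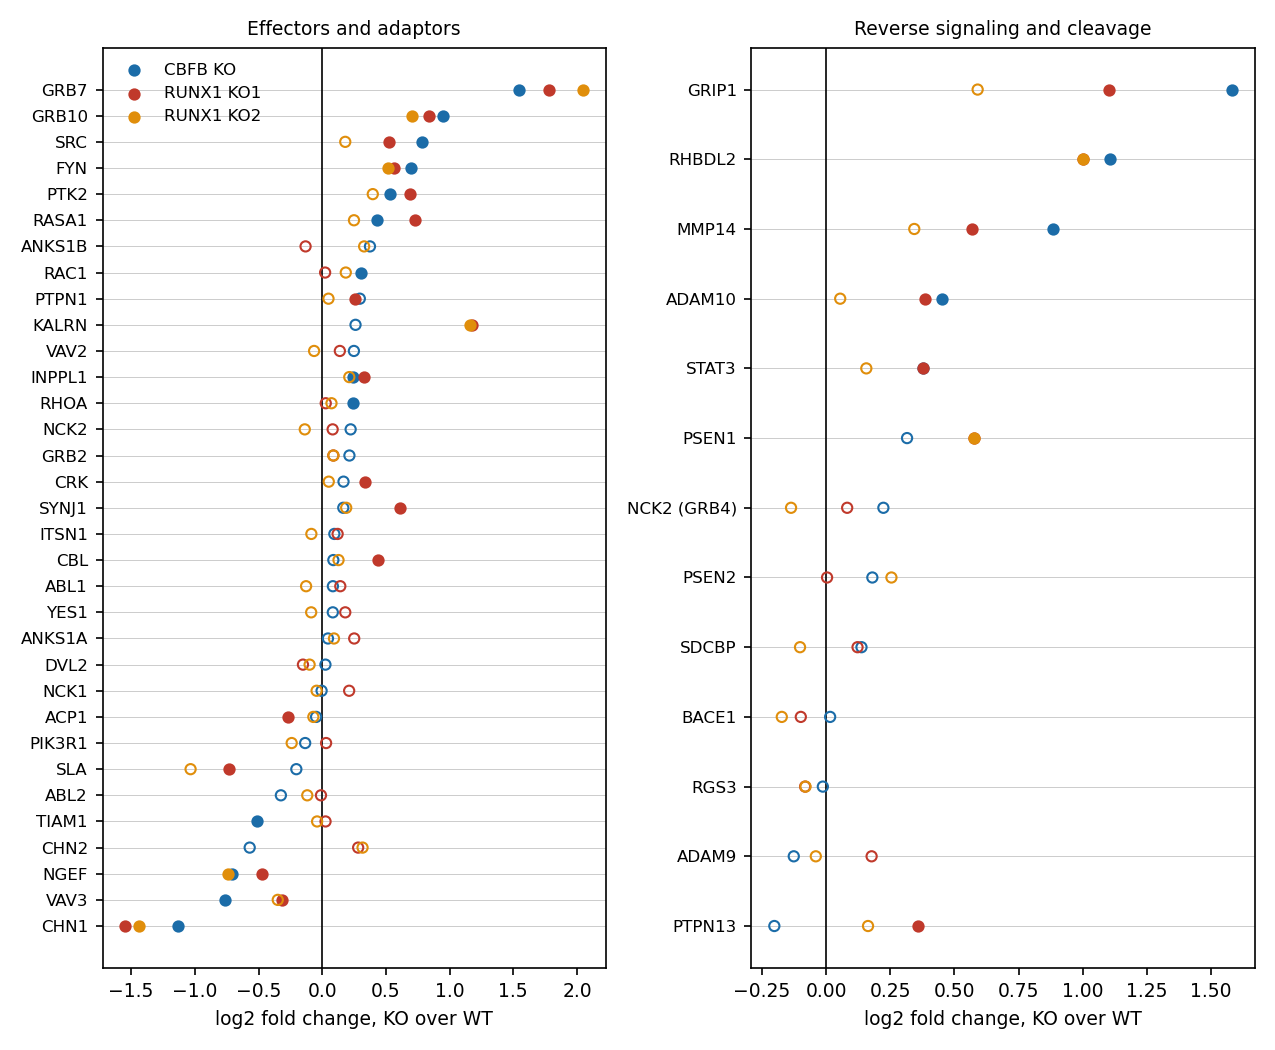
Log2 fold change of KO over WT for each tested gene of the effector list (left) and of the list for reverse signaling and cleavage (right), with 1 point per comparison, filled where the adjusted p was under 0.05, and genes ordered by their value in CBFB KO. GRB7 tops the left panel with CHN1 at its foot, and GRIP1 and RHBDL2 top the right panel.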

How the data were processed

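RNA of 18 MCF10A libraries in 5 groups, taken from the sample labels, had been sequenced. A TruSeq mRNA kit is named in the labels, while the methods of the study describe depletion of rRNA, and it is not known which was used. The submitters' processing notes name Trimmomatic, STAR, DESeq2 and hg19, with no role or order, and the read counter and annotation are not given in the sources used here. The authors deposited 3 tables, each comparing a knockout with WT, and these hold 0 columns of per-sample values. They give the mean of the authors' normalized counts, treated here as a signal, the deposited log2 fold change with its SE, the deposited score (log2 fold change over SE), and the deposited p-value with its Benjamini-Hochberg adjustment. These columns hold the authors' own comparisons, and the fold changes and SEs printed are the deposited ones, while p-values, adjusted p-values, levels, intervals and differences were computed from them and the mean.

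The two-sided Wald p was taken from the log2 fold change over its SE and adjusted over the genes with a deposited adjusted p (14975 in the CBFB table, 16394 in that of KO1 and 15636 in that of KO2). The lowest means tested were 3.37, 0.748 and 1.03. Recomputed adjusted p-values differed from the deposited ones by at most 6.78e-04 and put 0 genes on another side of 0.05. The WT level was calculated from the mean and the fold change, groups being of equal size, and KO from WT. Levels were divided by the longest transcript in GENCODE release 29. The RUNX1 tables gave WT levels that differed by an SD of 0.034 (log2) over genes with a mean of at least 100, so they were taken to share WT libraries. CBFB KO was compared with each RUNX1 clone by dividing the difference by its combined SE, with a two-sided normal p. Intervals are 95% and normal. Neighboring genes and promoters came from RefSeq GRCh38.p14, for names, order and sequence only. Depth per library is known only through the sums of mean counts.

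The members and the lists were chosen with earlier results of these data known. Named genes were all members, every other Eph or ephrin gene, and genes of the further lists that changed in the same direction in all 3 tables or passed both criteria in any. The alternatives were adjustment over other gene sets, a median or a trend on length and GC content subtracted, a fold of 1.5, and other lengths. The code was tested on simulated data (Python 3.11.15, pandas 2.3.3, NumPy 2.4.6, SciPy 1.17.1).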

Additional observations from a re-analysis of the deposited data

Results flagged for a closer look

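EPHB6 was flagged because its response differed between CBFB KO and each RUNX1 clone by a test of the difference itself. The log2 difference was -0.99 against RUNX1 KO1 (SE 0.29, adjusted p = 0.0154) and -0.99 against RUNX1 KO2 (SE 0.30, adjusted p = 0.0430). With a trend on length and GC content subtracted, the difference against RUNX1 KO2 was -0.92 (adjusted p = 0.0747). Of the 10 members 1 differed from RUNX1 KO1 and 1 from RUNX1 KO2, where 9.84% and 2.9% of all genes did. Both rest on the same CBFB KO value and on WT libraries that the RUNX1 clones share, so they are not independent. The EPHB6 mean was 54.1 normalized counts over the CBFB libraries, and 106.5 and 100.2 in the RUNX1 tables. Clone, experiment and the gene that was lost cannot be told apart here.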

How the results depend on the processing

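Of the recomputed counts of members called, 26 stayed within 1.5 times their first value and 7 did not. Of the recomputed single values, 176 kept their direction and side of the threshold or, for ratios and shares, moved little. A fold of at least 1.5 raised the members past both criteria to 5 in CBFB KO (3 higher, 2 lower). It raised them to 4 in RUNX1 KO1 (4 higher, 0 lower) and 3 in RUNX1 KO2 (3 higher, 0 lower). Shares over all genes were not computed for this fold or for the other alternatives, so these counts have no background beside them. After subtraction of a length and GC trend, 1 member was past both in RUNX1 KO1 and 0 in RUNX1 KO2, and 0 members differed between CBFB KO and RUNX1 KO2. The members past an adjusted p of 0.05 alone stayed at 7, 6 and 5 under that trend, where EPHB3 (-0.63) entered and EPHB4 (0.09) left in CBFB KO. When genes under a mean of 100 in either table were left out, 0 members differed between CBFB KO and either clone, since EPHB6 is below that mean in the CBFB table and was not tested. Signs turned for values near 0: EPHB4 in KO1 to 0.012 with the median subtracted, and under the length and GC trend EPHB3 (-0.029) and EPHB4 (-0.073) in KO2 and the EPHA1 differences (-0.050 against KO1 and 0.038 against KO2). With coding length the ratio of EFNB1 to EFNB2 was 0.594, 0.748 and 0.779 in WT and 2.11, 1.63 and 1.93 in KO. The cause of these shifts was not tested. Leaving out a replicate was not run. No paired analysis was possible because the tables hold no values per library, although the labels give groups the same repeat numbers. Depth limits genes with means under 40, EPHA4 among the members.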
